A study of Mus musculus with 19 samples.

Results

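The genes described here are 8 receptors and enzymes of lipid and peptide signalling that are best known from glia and the vasculature: the endothelin receptors Ednrb and Ednra, the sphingosine 1-phosphate receptors S1pr1 and S1pr3, the lysophosphatidic acid receptor Lpar1, the orphan-type receptor Gpr37l1, the thrombin receptor F2r and the secreted lipase Pla2g7. They were chosen by gene symbol, because Ednrb, S1pr3 and Pla2g7 were seen to change most between progenitors and tumors of the mouse cerebellum, so those differences are given below as a description and not as a test. Of the 8 genes, 7 had a probe set annotated with their symbol alone, out of 18193 genes on the arrays with such a probe set, and all 7 were among the 12148 genes tested. Ednra was not analysed here. Where a gene had several probe sets, the one with the highest average across all arrays was used.

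Expression was measured on 19 Affymetrix Mouse430+2 arrays in 5 groups, all C57BL/6 by the labels. NEP tumors (n = 4) were tumor cells of Nestin-CreERT2/Ptch1C/C mice and GNP tumors (n = 4) were tumor cells of Math1-CreERT2/Ptch1C/C mice. CreERT2 is a recombinase switched on by tamoxifen, driven here by the Nestin or the Math1 (Atoh1) promoter, and Ptch1 is the receptor that restrains Hedgehog signalling. NEPs (n = 4) were Nestin+ progenitors, GNPs (n = 4) were Math1+ granule neuron progenitors and NSCs (n = 3) were CD133+, Lin- cerebellar cells, none with a further allele or treatment in the labels. Cells came straight from the cerebellum without culture. Neither the age or sex of the mice nor any pooling is stated, and nothing says that arrays of a group came from separate animals, so p-values here speak only of spread among arrays, which may be technical. Precision is limited by the number of arrays.

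NEP and GNP arrays share a number in their titles, and NSC and tumor arrays share another. These numbers are read here as runs of arrays, which no label states. On that reading, run and group cannot be told apart when tumors are set against progenitors, or progenitors against NSCs. Values are deposited log2 signals, and the median signal of an array lay between 2.44 and 2.57. A gene whose group mean lay under the array median is called dim, and a difference from a dim group is one of array signal. Of the genes that define the sorts, Nes averaged 5.87 ± 0.19 in NEPs and 3.49 ± 0.35 in GNPs, Atoh1 averaged 3.95 ± 1.59 in NEPs and 8.85 ± 0.09 in GNPs, and Prom1, which encodes CD133, averaged 8.08 ± 0.11 in NSCs (SD). Prom1 averaged 8.61 ± 0.30 in NEPs and 7.24 ± 0.17 in GNPs, so it did not single out NSCs. Atoh1 also averaged 8.93 ± 0.01 in NSCs. The median of 6 granule neuron progenitor markers lay between 9.27 and 9.32 in NSCs and between 9.19 and 9.41 in GNPs. By Atoh1 and these granule markers NSCs were not set apart from GNPs, which limits every contrast with NSCs. Other markers did set them apart. Prom1 was higher in NSCs than in GNPs, as was Nes, at 4.47 ± 0.12 in NSCs. The median of the neural stem cell and radial glia markers lay between 7.55 and 7.71 in NSCs and between 4.74 and 5.95 in GNPs. Ptch1 was not lower in tumors, at 11.46 ± 0.09 in NEP tumors and 11.21 ± 0.04 in GNP tumors, against 10.52 ± 0.29 in NEPs and 10.28 ± 0.09 in GNPs. Where its probe set lies relative to the deleted part is not known here, so it does not check the deletion.

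Endothelin receptors answer peptides cut from precursors by endothelin converting enzymes, and Ednrb is abundant on astrocytes and Bergmann glia, the radial astrocytes of the cerebellar cortex. Sphingosine 1-phosphate and lysophosphatidic acid are membrane-derived lipids that act on G protein-coupled receptors and steer cell migration, shape and vessel stability. Gpr37l1 is a receptor of Bergmann glia and astrocytes for which prosaposin has been proposed as a ligand, F2r is opened by protease cleavage of its own N terminus, and Pla2g7 degrades platelet-activating factor.

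The sequence just before the transcription start is shown for the 3 genes picked on their values and, as a contrast, for F2r, whose signal was nearly even across groups. Each run is 250 bases that end at the base before the start, 5′ to 3′ on the gene's strand, from RefSeq (GRCm38.p6). Letters in capitals mark matches to 1 of 6 short motifs searched on both strands: TTGGC (the NFI half-site), TGGGAA (the RBPJ core), ACAAT (the SOX core), GACCACCCA (the GLI consensus), CAGCTG (an E-box) and TATAAA (the TATA box). None of these motifs lies within another. The Ednrb window lies at chr14:103843702-103843951 (minus strand), that of S1pr3 at chr13:51408368-51408617 (plus strand), that of Pla2g7 at chr17:43568201-43568450 (plus strand) and that of F2r at chr13:95618467-95618716 (minus strand).
Ednrb: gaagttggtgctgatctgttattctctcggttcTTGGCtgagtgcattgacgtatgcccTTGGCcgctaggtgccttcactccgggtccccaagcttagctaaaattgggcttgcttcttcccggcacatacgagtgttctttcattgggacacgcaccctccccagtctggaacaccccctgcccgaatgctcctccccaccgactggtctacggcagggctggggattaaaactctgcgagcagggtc
S1pr3: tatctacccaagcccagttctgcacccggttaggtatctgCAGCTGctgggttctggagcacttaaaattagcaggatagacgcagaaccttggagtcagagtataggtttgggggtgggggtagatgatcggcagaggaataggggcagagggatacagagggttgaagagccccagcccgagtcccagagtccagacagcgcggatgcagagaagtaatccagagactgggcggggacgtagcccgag
Pla2g7: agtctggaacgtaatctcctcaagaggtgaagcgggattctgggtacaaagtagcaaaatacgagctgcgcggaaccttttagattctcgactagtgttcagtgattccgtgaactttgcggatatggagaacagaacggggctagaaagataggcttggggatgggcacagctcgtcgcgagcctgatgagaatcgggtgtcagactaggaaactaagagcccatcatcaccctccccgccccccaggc
F2r: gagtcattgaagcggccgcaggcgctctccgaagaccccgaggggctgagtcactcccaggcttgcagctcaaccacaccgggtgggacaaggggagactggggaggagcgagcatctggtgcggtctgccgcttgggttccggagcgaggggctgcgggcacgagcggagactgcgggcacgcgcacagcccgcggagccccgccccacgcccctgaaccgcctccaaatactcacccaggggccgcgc

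The Ednrb window held TTGGC at 217 and 191 bases before the start, and the S1pr3 window held CAGCTG at 210 bases before it. The Pla2g7 and F2r windows held none of the 6 motifs, which says only that these letters are not in these windows. Over the 27025 promoter windows of the same length, 41.9% held TTGGC, 12.8% CAGCTG, 28.3% ACAAT, 21.5% TGGGAA, 13% TATAAA and 0.211% GACCACCCA. The Gpr37l1 window held no match, and of the 3 Lpar1 windows 1 held TTGGC and 1 held ACAAT.

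Ednrb was high in NEPs and lay near the array median in GNPs, while both tumor groups sat between them and close to each other. Its log2 signal was 4.25, 3.89, 4.79 and 4.48 in NEP tumors, 4.59, 4.49, 4.04 and 4.69 in GNP tumors, 10.23, 11.03, 11.05 and 11.10 in NEPs, 2.00, 2.25, 2.28 and 4.17 in GNPs, and 8.21, 8.02 and 7.98 in NSCs. All NEP arrays lay above every other array, and the NSC arrays lay above all tumor and GNP arrays. The means differed by 8.18 between NEPs and GNPs and by -6.50 between NEP tumors and NEPs, a signal 90.5-fold lower in the tumors. GNP tumors were 1.78 above GNPs, but GNP array 4 reached into the range of the GNP tumors, so these groups overlapped. The step in GNP tumors depended on the probe set: 1437347_at, used here, gave this 1.78, 1423594_a_at gave 0.85 and 1426314_at gave 0.01, while NEP tumors minus NEPs was -6.50, -5.63 and -5.74 by the same probe sets. NEP tumors minus GNP tumors came to -0.10, within the pooled SD of 0.34. In bulk samples such as these, fewer cells of a type and less RNA per cell cannot be told apart.

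S1pr1, which couples to Gi proteins and is known for keeping lymphocytes in circulation and vessels tight, was also highest in NEPs. It had 3.35, 3.08, 3.70 and 3.48 in NEP tumors, 3.10, 3.23, 3.06 and 3.45 in GNP tumors, 7.16, 6.70, 6.57 and 7.49 in NEPs, 2.33, 2.37, 2.04 and 2.26 in GNPs, and 3.84, 3.86 and 3.59 in NSCs. NEP arrays were the highest, the tumor and NSC arrays lay between 3.06 and 3.86, and S1pr1 was dim in GNPs. The difference was 4.73 between NEPs and GNPs, -3.58 between NEP tumors and NEPs, and 0.96 between GNP tumors and GNPs.

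S1pr3, a sphingosine 1-phosphate receptor that couples to Gi, Gq and G12/13 proteins and is raised in reactive astrocytes, was the member that separated the tumors. Its log2 signal was 4.06, 3.95, 6.53 and 5.62 in NEP tumors, 7.13, 7.14, 6.80 and 6.82 in GNP tumors, 10.11, 10.03, 9.71 and 10.07 in NEPs, 1.83, 2.05, 2.13 and 2.79 in GNPs, and 8.16, 8.08 and 8.14 in NSCs. No 2 groups overlapped. NEPs exceeded GNPs by 7.78, whereas NEP tumors differed from GNP tumors by -1.93, the opposite order. The NEP tumor arrays spread by 1.25 (SD), against 0.19 in GNP tumors, and arrays 1 and 2 formed the low pair. With arrays 1 and 2 alone the tumor difference was -2.97, and with arrays 3 and 4 alone it was -0.90.

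The signal of S1pr3 in tumors depended on the probe set. The one used here is 1438658_a_at. 1437173_at gave a tumor difference of -0.26 and a difference of 0.91 between GNP tumors and GNPs, where 1438658_a_at gave 4.77. 1460661_at stayed near or under the array median in every group and gave 0.15 between the tumors. All 3 probe sets were higher in NEPs than in GNPs, by 7.78, 4.81 and 0.71. Averaging the probe sets of the gene gave a tumor difference of -0.68.

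Lpar1, a lysophosphatidic acid receptor of oligodendrocytes, meninges and neural progenitors, was high in NEPs and moderate in NSCs. It had 2.93, 2.83, 3.43 and 3.22 in NEP tumors, 3.08, 3.28, 3.17 and 3.20 in GNP tumors, 7.62, 7.35, 6.19 and 6.66 in NEPs, 2.06, 2.18, 2.32 and 2.05 in GNPs, and 4.69, 4.63 and 4.64 in NSCs. Tumors lay just above the array median and below NSCs, and GNPs were dim. Differences came to 4.80 between NEPs and GNPs, -3.85 between NEP tumors and NEPs, and 1.03 between GNP tumors and GNPs.

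Gpr37l1 was the member with tumors above NSCs. Its log2 signal was 5.82, 5.75, 5.54 and 5.37 in NEP tumors, 5.18, 5.29, 5.23 and 5.45 in GNP tumors, 9.35, 9.20, 8.51 and 9.42 in NEPs, 2.25, 1.74, 2.05 and 2.78 in GNPs, and 4.63, 4.86 and 4.76 in NSCs. Every tumor array lay above every NSC array, and the 2 tumor groups overlapped. NEPs exceeded GNPs by 6.91, NEP tumors minus NEPs came to -3.50, and GNP tumors minus GNPs to 3.08, and Gpr37l1 was dim in GNPs.

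Pla2g7, the platelet-activating factor acetylhydrolase, was, like Ednrb, set far apart between the progenitors, from a GNP mean that was dim. It had 5.13, 4.88, 6.14 and 5.48 in NEP tumors, 5.84, 5.85, 5.47 and 5.86 in GNP tumors, 10.48, 10.68, 10.69 and 10.65 in NEPs, 2.26, 1.85, 2.28 and 3.12 in GNPs, and 7.50, 7.56 and 7.52 in NSCs. NEP arrays lay within a narrow band above all others, with an SD of 0.10. The difference was 8.25 between NEPs and GNPs, -5.22 between NEP tumors and NEPs, and 3.38 between GNP tumors and GNPs. The tumor groups overlapped, with NEP tumor array 3 highest.

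F2r, the protease-activated receptor for thrombin, was bright in all 5 groups. Its log2 signal was 10.14, 10.09, 10.34 and 10.28 in NEP tumors, 10.41, 10.37, 10.36 and 10.32 in GNP tumors, 10.15, 9.99, 10.57 and 10.48 in NEPs, 10.52, 10.58, 10.50 and 10.72 in GNPs, and 10.61, 10.37 and 10.49 in NSCs. NEPs and GNPs overlapped and differed by -0.28. A second probe set, 1450852_s_at, gave -0.49.

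**Figure D1:**
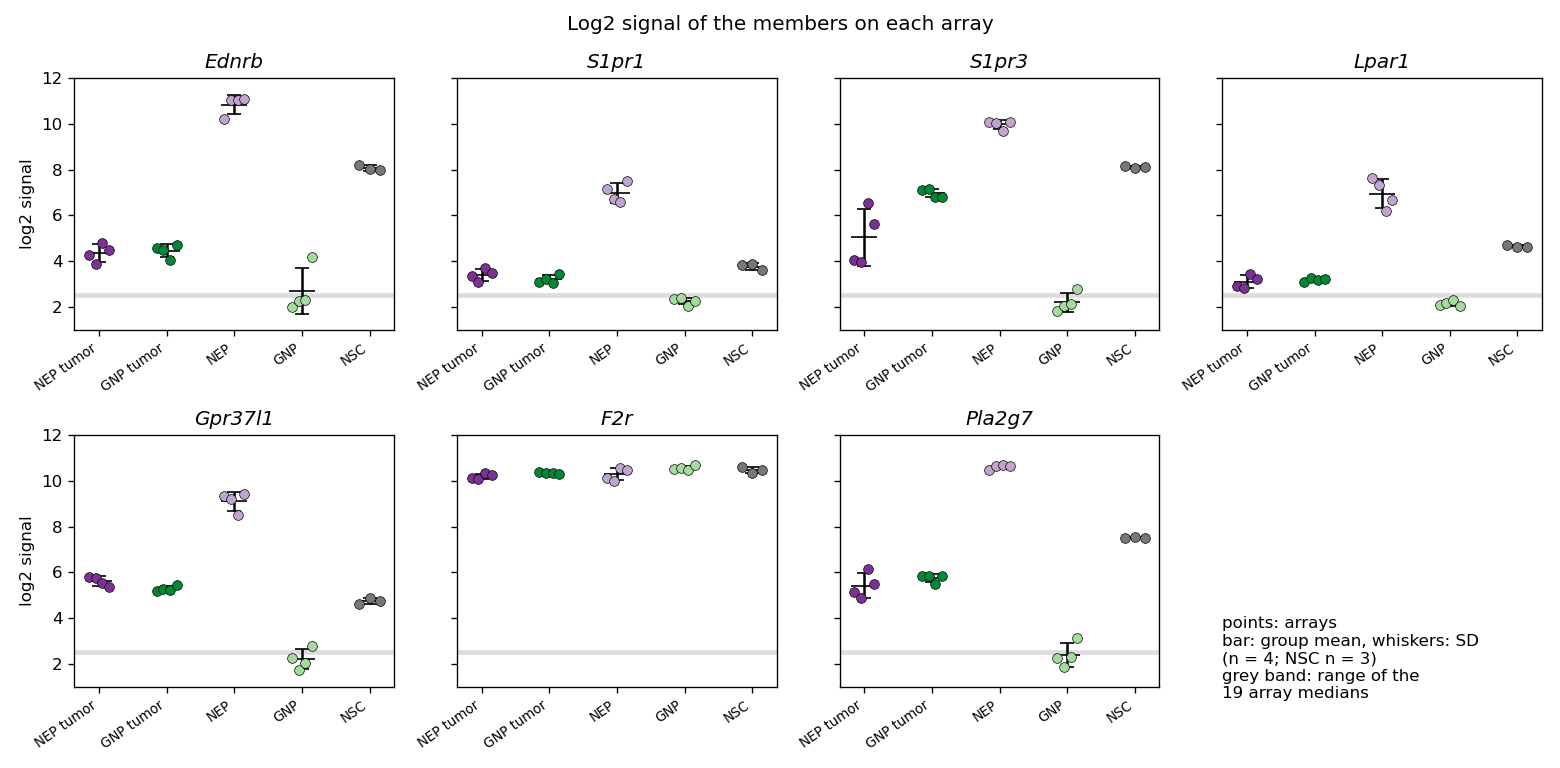
Log2 signal (y axis) of the 7 measured genes by group (x axis), with 1 point per array, a bar at the group mean and whiskers of 1 SD; the grey band is the range of the array medians, 2.44 to 2.57. For 6 genes the NEP arrays are the highest and the GNP arrays the lowest, apart from GNP array 4 of Ednrb at 4.17, while F2r stays between 9.99 and 10.72 on every array.

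Across these comparisons the 7 genes fall into 6 that separate the progenitors and F2r. In NEPs against GNPs, 6 of 7 were higher with no overlap of arrays, where 24.5% of all genes tested were. The median difference of the 7 was 6.91, against -0.11 over all genes tested. In NEP tumors against NEPs, 6 of 7 were lower without overlap, against 26.4% of all genes, and the median difference was -3.85 against 0.05. In GNP tumors against GNPs, 5 of 7 were higher without overlap (background 22%) and F2r was lower by a difference of -0.22 (background 32.9%), with a median of 1.78 against -0.08. In NEP tumors against GNP tumors, S1pr3 was lower without overlap (background 13% lower and 19.9% higher), and the other 6 overlapped. The rule used these contrasts, so nothing is read from the counts. These comparisons share progenitor and tumor arrays with each other.

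Set on a scale where GNPs stand at 0% and NEPs at 100%, tumors stood close to each other for 5 of the 6 genes by the probe sets used. Ednrb stood at 20.5% in NEP tumors and 21.8% in GNP tumors, S1pr1 at 24.4% and 20.4%, and Lpar1 at 19.8% and 21.5%. Gpr37l1 stood at 49.4% in NEP tumors and 44.6% in GNP tumors, and Pla2g7 at 36.7% and 41.0%. S1pr3 stood at 36.5% in NEP tumors and 61.3% in GNP tumors. NSCs stood at 66.0% for Ednrb, 76.1% for S1pr3, 62.4% for Pla2g7, 52.0% for Lpar1, 36.8% for Gpr37l1 and 32.0% for S1pr1. These positions depended on the probe set. For Ednrb, 1423594_a_at put NEP tumors at 16.4% and GNP tumors at 12.6%, and 1426314_at put them at 3.59% and 0.198%, so that by the last the GNP tumors stood with the GNPs. For Lpar1, 1417143_at put NEP tumors at 11.9% and GNP tumors at 9.28%, and 1426110_a_at put both below the GNPs, at -4.92% and -3.49%. For S1pr3, 1437173_at gave 13.6% in NEP tumors and 18.9% in GNP tumors. 1460661_at gave 23.6% and 2.57%, the opposite order, on a NEP minus GNP difference of only 0.71. S1pr1, Gpr37l1 and Pla2g7 had 1 probe set each.

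**Figure D2:**
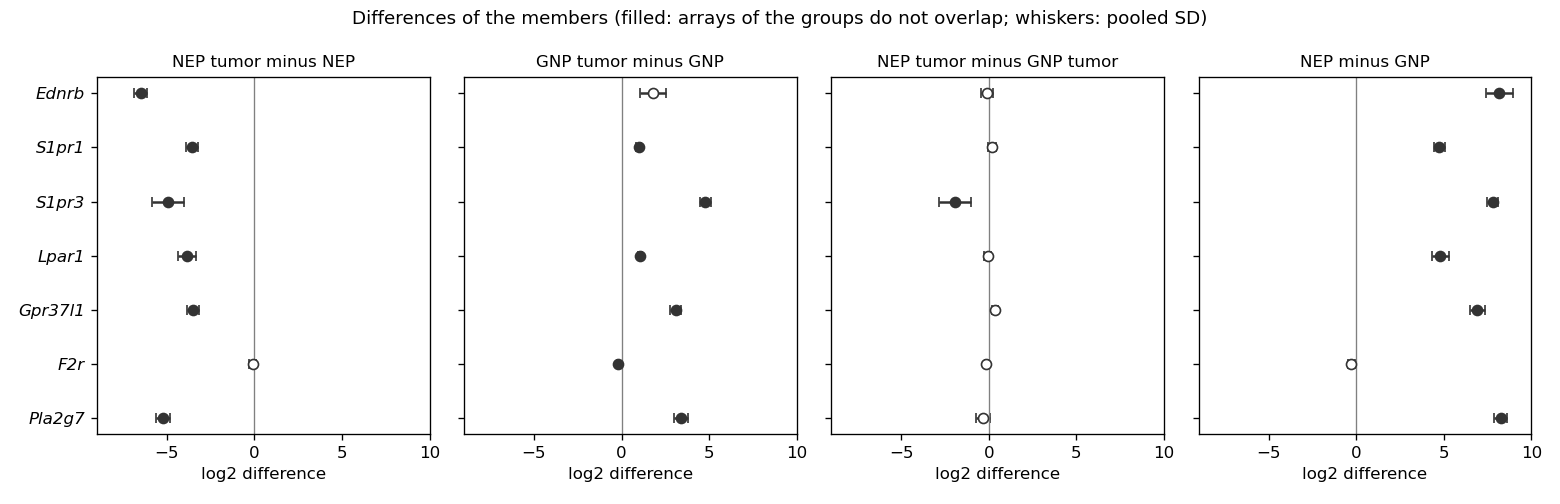
Log2 difference (x axis) of the 7 genes (y axis) in NEP tumors minus NEPs, GNP tumors minus GNPs, NEP tumors minus GNP tumors and NEPs minus GNPs; whiskers are the pooled SD, and filled points mark groups whose arrays do not overlap. S1pr3 at -1.93 is the filled point among NEP tumors minus GNP tumors, and F2r stays within 0.28 of 0 in all 4 panels.

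The Ednrb probe sets also differed in the progenitor and NSC differences. In the order 1437347_at, 1423594_a_at and 1426314_at, NEPs minus NSCs was 2.78, 1.63 and 4.64, and NEPs minus GNPs was 8.18, 6.73 and 5.96. All 3 put NEPs highest. For Lpar1, 1448606_at and 1417143_at gave 4.80 and 4.17 between NEPs and GNPs, and 1426110_a_at, which was dim outside NEPs, gave 1.06. In the same order, GNP tumors minus GNPs was 1.03, 0.39 and -0.04 for Lpar1.

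**Figure D3:**
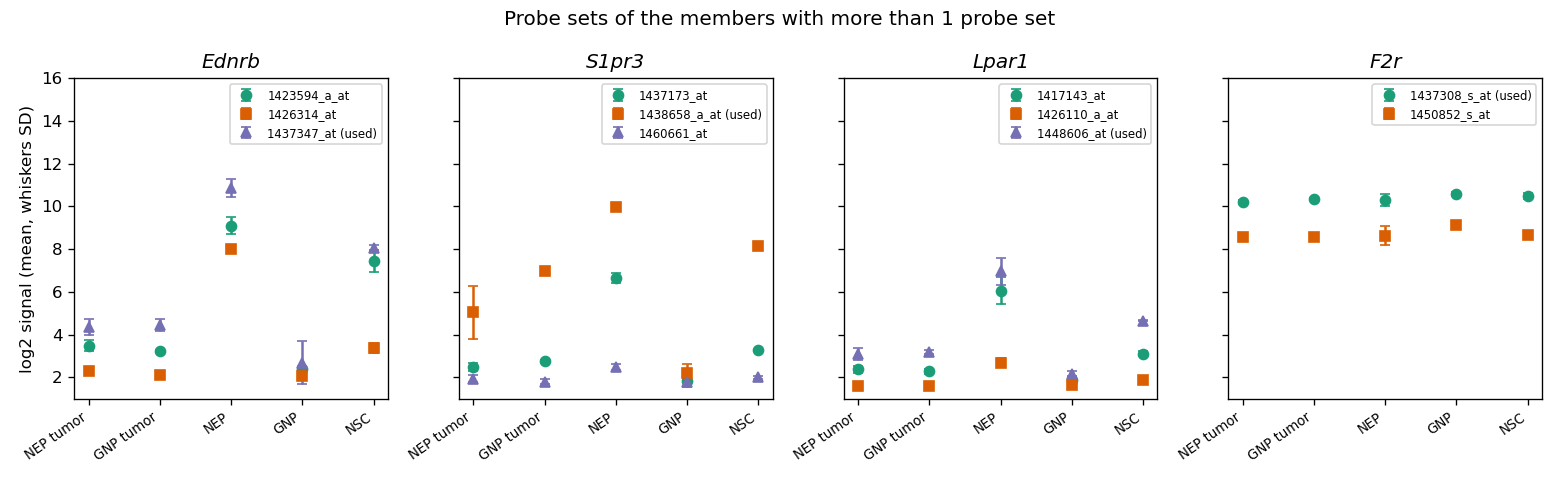
Mean log2 signal with 1 SD (y axis) of every probe set of Ednrb, S1pr3, Lpar1 and F2r, by group (x axis). Each Ednrb probe set is highest in NEPs, with NEPs minus NSCs at 2.78, 1.63 and 4.64, and 1 of the 3 S1pr3 probe sets carries the gap between tumors.

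Patterns over the 5 group means were also set against those of all genes tested. Each gene was centred on its own mean, and likeness was the root-mean-square log2 difference between patterns, where 0 is identical. Nearest to Ednrb were Ptx3 (0.395), Ampd3 (0.445) and Id4 (0.561), and nearest to S1pr3 were the water channel Aqp4 (0.498), Ttyh1 (0.617) and Vcam1 (0.632). Nearest to Pla2g7 were Id3 (0.389), Nid1 (0.536) and Plpp3 (0.543), the last also a gene of the lipid pathways below. Gpr37l1 had Gdf10 (0.306), Slc25a18 (0.384) and Sox8 (0.451) nearest to it, S1pr1 had Jam2 (0.116), Itpr2 (0.133) and Sfxn5 (0.176), and Lpar1 had Cpq (0.156), Dab2 (0.167) and Lama1 (0.207). Aqp4 and Gdf10 are among the Bergmann glia and astrocyte markers used here. F2r, with its nearly even signal, had Hhat (0.0317), Fbrs (0.0330) and Samd14 (0.0366). Within the set, the closest pair was S1pr1 and Lpar1 (0.413), followed by S1pr3 and Pla2g7 (0.685) and by Ednrb and Pla2g7 (0.764).

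Contrasts with NSCs were tested for S1pr1, Lpar1, Gpr37l1 and F2r, the measured genes not picked on their values, with limma over all 12148 genes. These contrasts share NEP, GNP and tumor arrays with those the rule used. In NEPs against NSCs, 3 of 4 were higher, where 30.9% of all genes tested were higher and 27.6% lower. Gpr37l1 exceeded NSCs by 4.37 (SE 0.22, adjusted p = 5.15e-11 by limma with Benjamini-Hochberg), S1pr1 by 3.22 (SE 0.19, adjusted p = 3.37e-10 by limma) and Lpar1 by 2.30 (SE 0.24, adjusted p = 3.95e-07 by limma). F2r gave -0.19 (adjusted p = 0.169 by limma), or -0.28 (adjusted p = 0.0357) without NEP array 3. In GNPs against NSCs the same 3 genes were lower, where 13.1% of all genes were lower and 23.2% higher, with -2.55 for Gpr37l1 (adjusted p = 1.88e-07 by limma), -2.50 for Lpar1 (adjusted p = 6.62e-07) and -1.51 for S1pr1 (adjusted p = 1.2e-05). F2r gave 0.09 (adjusted p = 0.583 by limma).

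Tumors and NSCs lay in the same run, as the title numbers were read, and here the genes went different ways. In NEP tumors against NSCs, Gpr37l1 was higher (background 23.9%) by 0.87 (SE 0.22, adjusted p = 0.00385 by limma) and Lpar1 was lower (background 20.4%) by a difference of -1.55 (SE 0.24, adjusted p = 5.67e-05 by limma). With NEP tumor arrays 3 and 4 alone, the difference of Gpr37l1 was 0.70 (adjusted p = 0.0502 by limma). In GNP tumors against NSCs, 2 of 4 were lower, where 25.4% of all genes were lower and 22.2% higher. Lpar1 gave -1.47 (SE 0.24, adjusted p = 7.9e-05 by limma). S1pr1 gave -0.55 (SE 0.19, adjusted p = 0.0234 by limma), a call lost without NSC array 1, NSC array 2, GNP tumor array 1 or GNP tumor array 3, with differences of -0.51, -0.50, -0.51 and -0.50. Gpr37l1 in GNP tumors gave 0.54 (adjusted p = 0.0517 by limma), and 0.54 (adjusted p = 0.000419) when only the 2 groups compared entered the fit. Differences that missed the threshold were -0.36 for S1pr1 in NEP tumors (adjusted p = 0.133 by limma), -0.28 for F2r in NEP tumors (adjusted p = 0.0628) and -0.13 for F2r in GNP tumors (adjusted p = 0.403). F2r in NEP tumors gave -0.32 (adjusted p = 0.049 by limma) without NEP tumor array 3, and -0.28 (adjusted p = 0.0398) when only the 2 groups compared entered the fit. The pericyte, fibroblast and meningeal marker median was at least 7.58 in NSCs, against at most 4.71 in NEP tumors and 4.54 in GNP tumors. The endothelial median was at least 5.42 in NSCs, against at most 4.36 and 2.91 in the same order. The oligodendrocyte lineage median went the other way, at most 6.22 in NSCs, against at least 7.58 in NEP tumors and 7.34 in GNP tumors. The part of these cells in the contrasts with NSCs was not tested.

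The members' ligands, enzymes and partners were taken from 7 lists of 54 further genes, of which 40 were tested, 10 fell under the filter on low signal and 4 had no probe set of their symbol alone. In NEPs against GNPs, 21 of 40 rose in NEPs and 6 fell, where 29.6% and 39.9% of all genes did, with a median difference of 0.39 against -0.11. Among those that rose, Edn3, Lpcat2, F3, Thbd and Procr were dim in GNPs and needed arrays of other groups to pass the filter. Nothing is therefore read from counts or medians of contrasts with GNPs, here or by list below. With NEP arrays 3 and 4 alone, 20 of the 40 were higher and 7 lower. The calls of Edn3 and Procr were lost, and those of Mme (lower) and Gnai3 (higher) were gained. The share of all genes called in that fit is not given here. In NEP tumors against NEPs, 8 were higher and 22 lower (background 36.2% and 32.6%), with a median of -0.40 against 0.05. In GNP tumors against GNPs, 9 were higher and 12 lower (background 18.5% and 31.4%), with a median of -0.09 against -0.08. NEP tumors against GNP tumors had 7 higher and 4 lower (background 15.5% and 8.1%), with a median of 0.10 against 0.05. Against NSCs, 8 were higher and 11 lower in NEP tumors (background 23.9% and 20.4%), with a median of 0.06 against 0.02, and 8 and 14 in GNP tumors (background 22.2% and 25.4%), with a median of -0.12 against -0.02. In NEPs against NSCs 16 were higher and 6 lower (background 30.9% and 27.6%), with a median of 0.28 against 0.02, and in GNPs against NSCs 5 and 8 (background 23.2% and 13.1%), with a median of -0.09 against 0.06.

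Of the endothelin ligands, Edn1 lay near the array median in every group, at 2.53 ± 0.09 in NEP tumors, 2.56 ± 0.14 in GNP tumors, 2.59 ± 0.22 in NEPs, 2.39 ± 0.15 in GNPs and 2.87 ± 0.06 in NSCs (SD). Edn3, a ligand of Ednrb that was named after its values were seen, had 6.20 and 6.32 on NEP arrays 1 and 2 and 2.63 and 2.20 on NEP arrays 3 and 4, against 2.21 to 2.49 in GNPs. Its difference of 2.04 (adjusted p = 0.0129 by limma) was 0.12 with NEP arrays 3 and 4 alone, and its adjusted p was 0.0556 without NEP array 1 and 0.0556 without NEP array 2. Ece2, an endothelin converting enzyme, was lower in NEPs than in GNPs by a difference of -0.49 (SE 0.12, adjusted p = 0.0018 by limma) and higher in NEP tumors than in GNP tumors by 0.61 (SE 0.12, adjusted p = 0.0018). The difference between these contrasts was 1.11 (adjusted p = 4.14e-05 by limma).

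Of the 8 tested receptors, enzymes and transporters of sphingosine 1-phosphate, 3 were higher and 2 lower in NEPs than in GNPs. Of all genes tested, 29.6% were higher and 39.9% lower. Asah1, the acid ceramidase that releases sphingosine, averaged 10.20 ± 0.24 in NEPs and 8.56 ± 0.08 in GNPs, a difference of 1.64 (SE 0.11, adjusted p = 1.15e-09 by limma). Sgpp2, a sphingosine 1-phosphate phosphatase, averaged 5.23 ± 0.43 in NEPs and 8.08 ± 0.09 in GNPs, a difference of -2.85 (SE 0.15, limma adjusted p = 2.24e-11). Between the tumors, Sgpp2 averaged 8.58 ± 0.12 in NEP tumors and 8.65 ± 0.07 in GNP tumors. Spns2, the transporter that exports sphingosine 1-phosphate, averaged 4.47 ± 0.28 in NEPs and 6.48 ± 0.09 in GNPs.

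Lysophosphatidic acid genes were led by Plpp3, a cell-surface phosphatase that breaks down lysophosphatidic acid and sphingosine 1-phosphate. It averaged 7.46 ± 0.25 in NEP tumors, 7.62 ± 0.07 in GNP tumors, 11.26 ± 0.23 in NEPs, 4.44 ± 0.47 in GNPs and 9.48 ± 0.10 in NSCs. Its difference between NEPs and GNPs was 6.82 (SE 0.18, adjusted p = 4.03e-15 by limma). All 5 called genes of this list were higher in NEPs than in GNPs, out of 6 tested (background 29.6% higher and 39.9% lower). Between tumors, Lpar4, another lysophosphatidic acid receptor, was higher in NEP tumors by 1.18 (SE 0.18, adjusted p = 0.000167 by limma).

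Psap, which encodes prosaposin, and Gpr37, the nearest relative of Gpr37l1, were both higher in NEPs than in GNPs. Psap averaged 10.95 ± 0.29 in NEPs and 9.83 ± 0.09 in GNPs, and Gpr37 averaged 5.35 ± 0.59 in NEPs and 3.49 ± 0.14 in GNPs, a difference of 1.86 (SE 0.21, adjusted p = 8.9e-07 by limma). In the tumors Gpr37 averaged 2.74 ± 0.18 in NEP tumors and 2.61 ± 0.13 in GNP tumors, under its level in both progenitors, whereas Gpr37l1 lay between its progenitor levels.

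Of the other enzymes of platelet-activating factor, 2 were higher and 2 lower in NEPs among 6 tested (background 29.6% and 39.9%). One of the higher pair, Lpcat2, which makes platelet-activating factor and is known from macrophages, had 5.59, 5.31, 2.74 and 2.34 in NEPs, against 1.75 to 2.20 in GNPs. NEP arrays 1 and 2, its high pair, were also those with high microglia and macrophage markers, at a median of 9.29 and 9.21 against 4.02 and 2.03 on arrays 3 and 4. Medians of the oligodendrocyte lineage, endothelial and pericyte, fibroblast and meningeal markers were higher on arrays 1 and 2 as well. The part of any of these cells was not tested. The Lpcat2 difference of 1.92 (adjusted p = 0.00355 by limma) was 0.47 (adjusted p = 0.0174) with NEP arrays 3 and 4 alone. Against NEPs, Lpcat2 in NEP tumors gave -1.36 (adjusted p = 0.0283 by limma), and 0.09 (adjusted p = 0.625) with NEP arrays 3 and 4 alone. Pafah1b2, a catalytic subunit of the intracellular acetylhydrolase, averaged 8.42 ± 0.28 in NEPs and 9.43 ± 0.03 in GNPs, a difference of -1.02 (SE 0.10, adjusted p = 1.88e-07 by limma), opposite to Pla2g7. Plat, the tissue plasminogen activator, averaged 8.31 ± 0.40 in NEPs and 2.52 ± 0.14 in GNPs, a difference of 5.78 (SE 0.27, adjusted p = 6.88e-12 by limma), where F2r differed by -0.28. Of the 9 genes of the protease list, 4 were tested. All 4 were higher in NEPs than in GNPs, where 29.6% of all genes tested were, and 3 of them with NEP arrays 3 and 4 alone. The tissue factor gene F3, Thbd and Procr were dim in GNPs and passed the filter through other groups. Nothing is therefore read from this count. Procr and Thbd were named after their values were seen. Procr, the endothelial protein C receptor, had 3.38, 3.61, 1.89 and 2.32 in NEPs, against 1.67 to 1.86 in GNPs, and its difference of 1.02 (adjusted p = 0.00365 by limma) was 0.33 (adjusted p = 0.109) with NEP arrays 3 and 4 alone. Thbd, the thrombin receptor thrombomodulin, had 5.58, 4.97, 2.84 and 3.91 in NEPs, against 2.07 to 2.35 in GNPs, and its difference of 2.09 (adjusted p = 0.000136 by limma) was 1.14 (adjusted p = 0.000489) with those arrays alone. Both were highest on NEP arrays 1 and 2, where the endothelial and pericyte markers were also highest, and the part of these cells was not tested. Among G alpha subunits and arrestins, which carry or end receptor signals, 4 of 9 were higher and 1 lower in NEPs. The backgrounds were again 29.6% and 39.9%. Gnai1, an inhibitory G alpha subunit, was higher in NEP tumors than in GNP tumors by 1.10 (SE 0.10, adjusted p = 2.49e-06 by limma).

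**Figure D4:**
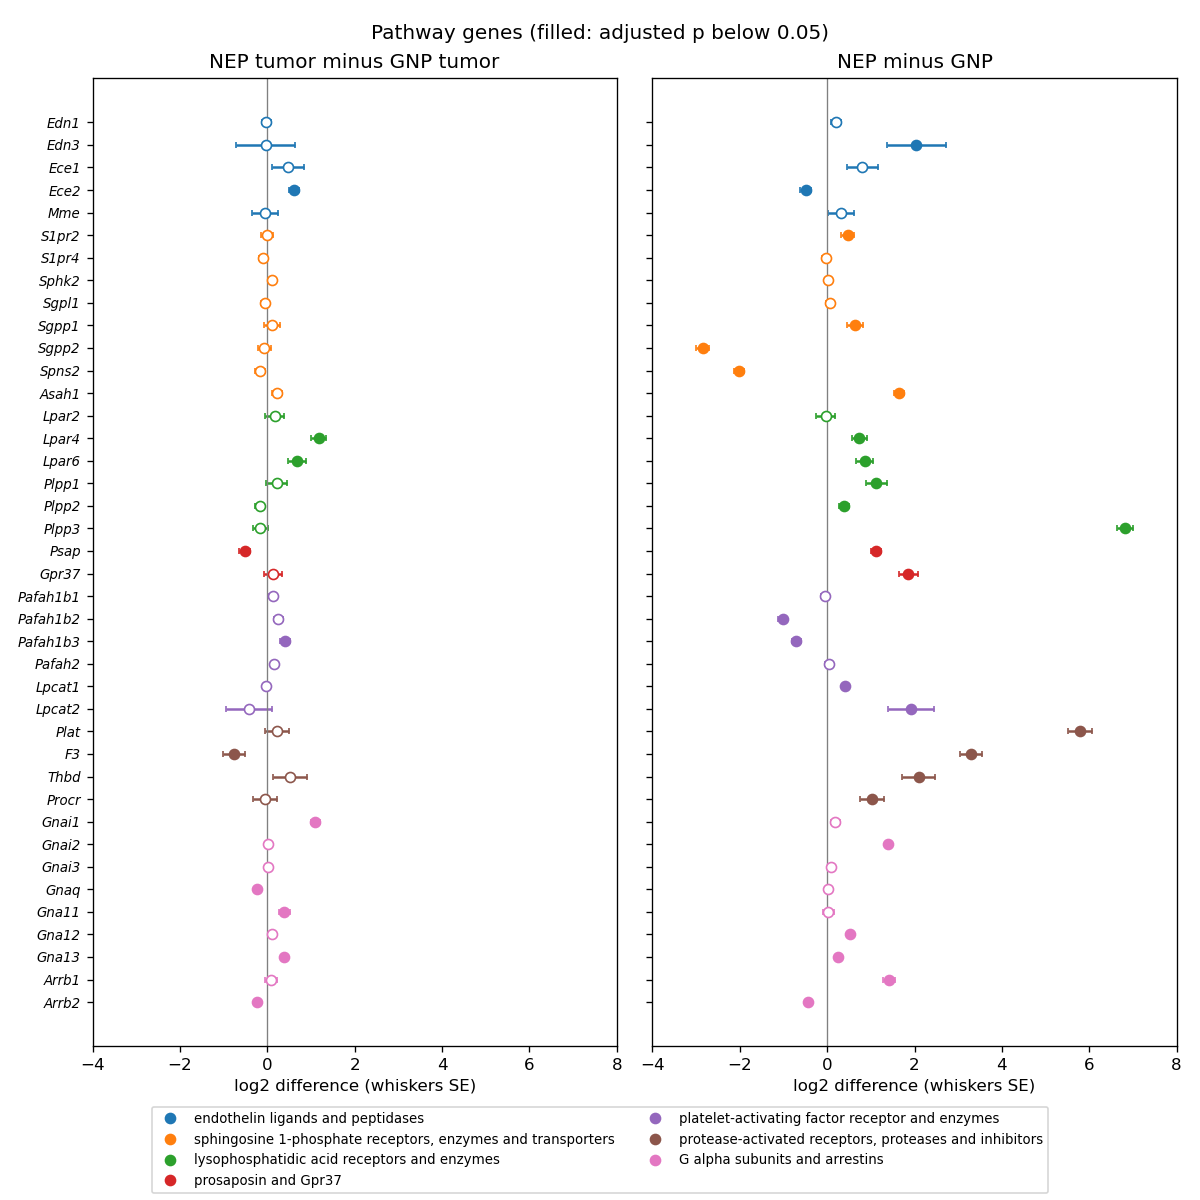
Log2 difference with its SE (x axis) of the 40 pathway genes tested (y axis, coloured by list), for NEP tumors minus GNP tumors and NEPs minus GNPs; filled points passed an adjusted p of 0.05. Plpp3 at 6.82 and Plat at 5.78 stand out in NEPs minus GNPs, and 11 genes are filled between the tumors.

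Marker lists of other cells moved with some of these genes. NEP arrays 1 and 2 carried markers of other cell types that arrays 3 and 4 carried less: the median of the 10 microglia and macrophage markers was 9.29 and 9.21 on arrays 1 and 2 and 4.02 and 2.03 on arrays 3 and 4, that of the 6 measured oligodendrocyte lineage markers was 9.50 and 9.40 against 7.19 and 6.82, and that of the 10 pericyte, fibroblast and meningeal markers was 9.23 and 9.30 against at most 6.28. The 6 differentiating neuron markers went the other way. Their median was 6.79 and 6.72 on arrays 1 and 2 and 9.18 and 8.22 on arrays 3 and 4. Atoh1 was also lower on arrays 1 and 2, at 2.85 and 2.38, than on arrays 3 and 4, at 5.67 and 4.90. Fits with arrays 3 and 4 alone are thus not fits of purer NEPs. Lpar1 was higher on NEP arrays 1 and 2, at 7.62 and 7.35, than on arrays 3 and 4, at 6.19 and 6.66. For Ednrb, Pla2g7, S1pr1 and S1pr3, arrays 1 and 2 were not both above arrays 3 and 4, and with NEP arrays 3 and 4 alone NEPs minus GNPs was 8.40 for Ednrb, 7.69 for S1pr3, 8.29 for Pla2g7 and 4.28 for Lpar1. The endothelial list, with a median of 5.67 and 5.56 on arrays 1 and 2 and 3.27 and 4.19 on arrays 3 and 4, has 8 measured markers, and its part in S1pr1 was not tested.

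All 10 Bergmann glia and astrocyte markers were measured and none was dim in any group. Their median lay between 6.96 and 8.28 in NEP tumors, between 7.94 and 8.06 in GNP tumors, between 10.67 and 10.94 in NEPs, between 4.00 and 5.13 in GNPs and between 8.79 and 9.08 in NSCs. GNP array 4, where Ednrb, S1pr3, Gpr37l1 and Pla2g7 were highest among GNPs, had the 5.13, and was also the highest GNP array in the oligodendrocyte lineage (4.17), endothelial (3.13) and pericyte, fibroblast and meningeal (3.18) medians. NEP tumor arrays 3 and 4, where S1pr3 was higher, had 8.28 and 7.78, against 6.99 and 6.96 on arrays 1 and 2. Those arrays were above arrays 1 and 2 in 8 of the 9 marker lists, the exception being neural stem cells and radial glia. Endothelial medians were 4.36 and 4.06 on arrays 3 and 4, against 2.95 and 2.85 on arrays 1 and 2, microglia and macrophage medians were 4.97 and 4.29 against 3.56 and 3.52, and oligodendrocyte lineage medians were 8.33 and 8.11 against 7.79 and 7.58. The part of these markers in the members' differences was not tested.

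**Figure D5:**
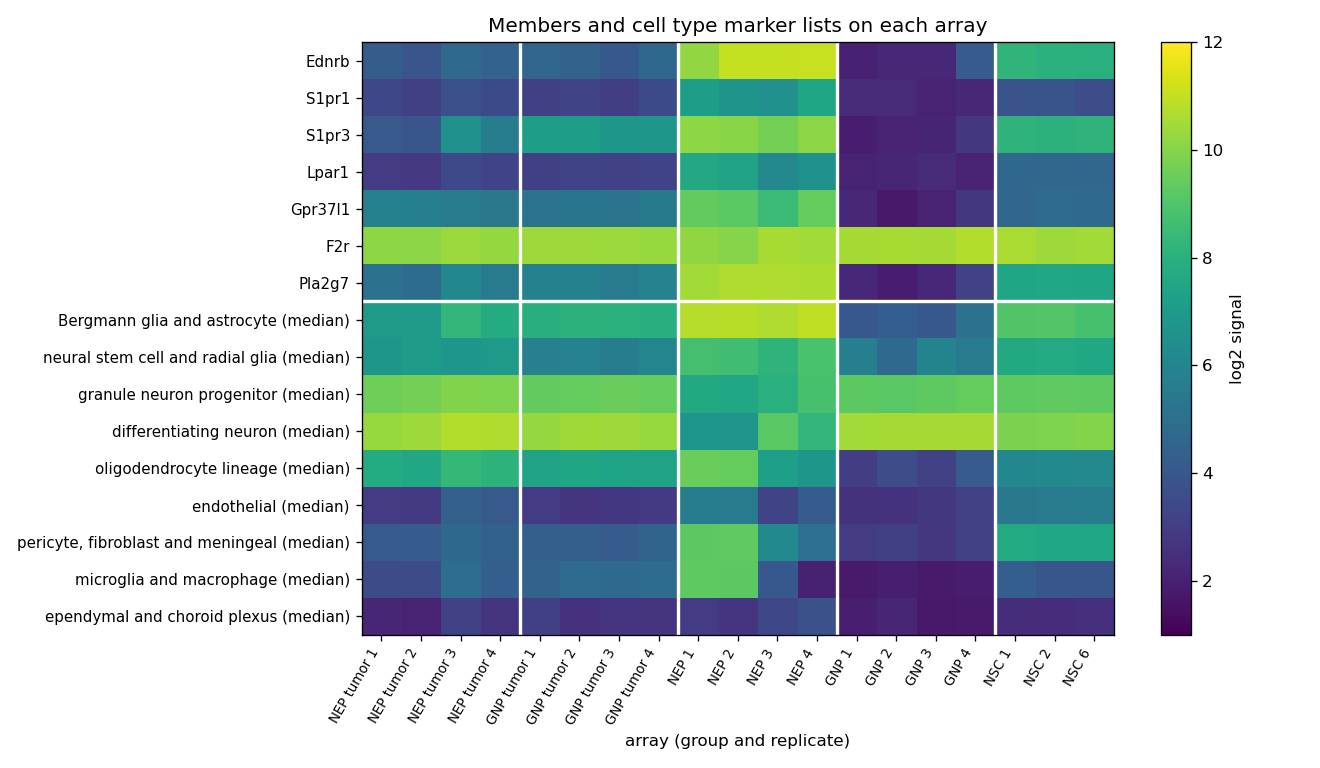
Log2 signal (colour) of the 7 measured genes and median signal of 9 cell type marker lists (y axis) on each of the 19 arrays (x axis, group and replicate). NEP arrays 1 and 2 stand out in the microglia and pericyte lists, and NEP tumor array 3 stands at 8.28 in the Bergmann glia list.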

How the data were processed

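Values for 19 Mouse430+2 arrays were the deposited log2 probe set signals, made by the authors with Affymetrix Expression Console and RMA (per the submitters' processing notes). Versions, background step and log base are not given in the sources used here; the hybridisation spike-in Cre exceeded BioB by 5.41 on average, which a log2 scale brings closest to the spike-ins' concentrations. Of 45101 probe sets, 34945 carried 1 gene symbol and were used, giving 18193 genes. Genes at or above the array median on at least 3 arrays (12148) were fitted over all arrays in R 4.3.3 with limma 3.58.1 (lmFit, eBayes; two-sided; Benjamini-Hochberg over all genes tested; called at adjusted p below 0.05). The fit was tested on simulated data with known changes. Poly-A spike-ins averaged 8.82 in the run of NEP and GNP arrays and 6.67 in the other.

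The members and gene lists were chosen with earlier results of these data known. Named pathway genes were, per list and comparison, the called gene with the largest difference in each direction among those whose groups do not overlap; each gene's 3 most similar patterns and the label checks Nes, Atoh1, Prom1 and Ptch1 were named too. Alternatives changed the probe set rule, filter, normalization, variance model, arrays in the fit and replicate block. Deviations of same-numbered arrays from their group means were weakly correlated (from -0.18 to 0.12), which does not decide whether the numbers pair arrays.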

Additional observations from a re-analysis of the deposited data

Results flagged for a closer look

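Among the members, 3 single arrays lay apart from the rest of their group of 4, by a gap that took up most of the group's range. Ednrb was 10.23 on NEP array 1, against 11.03 to 11.10 on the other NEP arrays, and 4.17 on GNP array 4, against 2.00 to 2.28 on the other GNP arrays. GNP array 4 also had the highest Bergmann glia and astrocyte marker median among GNPs, 5.13, and the highest oligodendrocyte lineage median, 4.17. Pla2g7 was 5.47 on GNP tumor array 3, against 5.84 to 5.86 on the others. Across 8 pathway genes, the arrays apart were NEP tumor array 3 for Edn1 (2.39), GNP array 2 for Lpar4 (5.96), GNP array 3 for Pafah1b2 (9.39) and for Lpcat2 (1.75), NEP array 4 for Lpcat1 (9.91), GNP array 4 for Gnai1 (8.68), GNP tumor array 3 for Gnai2 (10.10) and NEP array 2 for Gna11 (8.52). Chance marks about 1 group in 20, and 128 groups were examined.

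S1pr3 ran in opposite directions, higher in NEPs than in GNPs on every array and lower in NEP tumors than in GNP tumors on every array, with a tumor difference of -1.93. These are values of 1438658_a_at, and the tumor difference was -0.26 by 1437173_at and 0.15 by 1460661_at. The reversal was not tested, since the gene was chosen on these contrasts.

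For other pathway genes, the tumor difference (NEP tumors minus GNP tumors) was tested against the progenitor difference (NEPs minus GNPs) in the limma fit. Of the 40 tested, 23 were called, 6 with a positive gap and 17 with a negative one. The share over all genes is not given here, so nothing is read from these counts. Listed below are called genes that were named in either contrast. Others were called too, such as Gnai2 at -1.37 (adjusted p = 4.01e-08 by limma) and Spns2 at 1.85 (adjusted p = 1.01e-07). The gap was -6.97 for Plpp3 (adjusted p = 7.61e-13 by limma), -5.56 for Plat (adjusted p = 2.63e-09), -4.05 for the tissue factor gene F3 (adjusted p = 6.88e-08), -2.34 for Lpcat2 (adjusted p = 0.0115; -0.88 with NEP arrays 3 and 4 alone, adjusted p = 0.00158), -1.73 for Gpr37 (adjusted p = 0.000125), -1.63 for Psap (adjusted p = 5.07e-07), -1.42 for Asah1 (adjusted p = 1.01e-06) and -1.33 for Arrb1 (adjusted p = 2.39e-05). It was positive for Sgpp2 at 2.78 (adjusted p = 6.79e-09 by limma), Pafah1b2 at 1.27 (adjusted p = 1.42e-06), Pafah1b3 at 1.11 (adjusted p = 1.46e-05), Ece2 at 1.11 (adjusted p = 4.14e-05) and Gnai1 at 0.91 (adjusted p = 6.57e-05).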

How the results depend on the processing

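No tested member reversed a called direction under the alternatives run, which concerns only the contrasts with NSCs, where members were tested. Elsewhere members had no call to reverse. The Ednrb difference between the tumors, -0.10, was 0.12 when its probe sets were averaged, both within the pooled SD of 0.34. Among the pathway genes, Lpcat2 in NEP tumors against NEPs was -1.36, and 0.09 with NEP arrays 3 and 4 alone. Counts of called pathway genes changed by over 1.5 times in 2 comparisons. For NEP tumors against GNP tumors, 11 were called, against 7 to 9 without a single array (7 without GNP tumor array 1, GNP tumor array 3 or NEP tumor array 2) and 7 with NEP tumor arrays 3 and 4 alone. For GNPs against NSCs, 13 were called, against 23 when only the groups compared entered the fit; the cause was not tested. Of the 4 members tested, 2 were called in NEP tumors against NSCs, against 1 with NEP tumor arrays 3 and 4 alone and 2 to 3 without a single array. In GNP tumors against NSCs 2 were called, against 1 to 2 without a single array, the lost call being S1pr1. Alternatives that keep NEP arrays 3 and 4 or a pair of NEP tumor arrays, and the positions by single probe set, were chosen after seeing the data. With the replicate block, 23 pathway genes were called in NEPs against GNPs, 11 between the tumors, 20 in NEP tumors against NEPs and 25 in GNP tumors against GNPs, where the fit without it called 27, 11, 30 and 21; the numbers are not known to pair arrays. The share of all genes called is not given for these alternatives, so nothing is read from their counts. Single probe sets, dim GNP signals and 3 or 4 arrays a group limit the sizes given.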
